A study of Mus musculus with 9 samples.

Results

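The 1272 introns described here held far fewer reads in polyadenylated RNA than the authors' expected counts gave them. They were chosen by their observed and expected mean reads in both groups harvested at 0 h: an expected mean of at least 30 reads, and an observed mean of at most 50% of it, in both groups. They lay in 828 genes and made up 5.72% of the 22228 introns (7016 genes) of the authors' deposited table. Of the 5733 introns with enough expected reads, 22.2% met the rule, and of the 2404 genes with such an intron, 34.4% held at least 1. None of the 1272 was classed as detained by the authors, and none had a value at 2 h.

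The cells were v6.5 mouse embryonic stem cells grown on gelatin, with no genetic change named in the labels. Some cultures received KH-CB19, which inhibits Clk kinases, in the solvent dimethyl sulfoxide (DMSO), and the control cultures received as much DMSO without it. Harvest followed directly (0 h) or 2 h later. The labels give the final KH-CB19 concentration as 10 mM, a unit that could not be checked here and may be a slip for a smaller one. Each of the 4 groups had 2 biological replicates, so 8 strand-specific libraries, and a ninth library, of untreated cells, was not analysed here. RNA integrity numbers ran from 8.8 to 9.4. The table gave 1 mean per group and intron, so no spread between replicates could be computed, and the values below are the authors' means without SD.

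During splicing, the spliceosome recognises a donor site at the 5′ end and an acceptor site at the 3′ end of an intron, removes the intron and joins the exons. Most introns are removed while the gene is still being transcribed, so polyadenylated RNA keeps few reads from them. Detained introns are spliced late and remain in polyadenylated transcripts held in the nucleus. Clk kinases phosphorylate SR proteins, which bind exons and help the spliceosome to choose its sites.

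Splice sites are shown for introns far below expectation beside detained introns of the same gene. Sequence was at hand only for introns that another annotated GENCODE transcript keeps inside an exon. The first set of donor sites comes from Clk1, which encodes one of the kinases that KH-CB19 inhibits, from Srsf5, an SR protein gene, and from Taf1d, a subunit gene of a transcription factor of RNA polymerase I. These genes were chosen after their sequences and values were seen, to show donors that differ and, in Taf1d, donors that do not. Each line gives the last 10 exon bases and the first 20 intron bases in 5′ to 3′ direction on the transcript strand, with the first 6 intron bases in capitals (GRCm38).
Clk1 intron 16, far below expected, chr1:58413370-58413399, minus strand: agtttttccgGTAAGTgacaaagaatggtg
Clk1 intron 5, detained, chr1:58421063-58421092, minus strand: ttcacacgggGTATGAgtgccttttaaacg
Clk1 intron 7, detained, chr1:58420101-58420130, minus strand: agtgcaagatGTATAGaatatttttcaaca
Srsf5 intron 6, far below expected, chr12:80946711-80946740, plus strand: tggttttgtgGTAAGTacttgaaactgagt
Srsf5 intron 9, detained, chr12:80947856-80947885, plus strand: cagctggcagGTTTGTtgaaatacagtttt
Taf1d intron 9, far below expected, chr9:15310400-15310429, plus strand: caagttggttGTAAGTggctgatttttatt
Taf1d intron 16, detained, chr9:15314255-15314284, plus strand: gagatgtttgGTAAGTaactagttttgttt

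The donors of the 3 low introns shown read GTAAGT, a form that pairs with the U1 small nuclear RNA. The detained introns shown for Clk1 and Srsf5 carry other bases, and the detained intron of Taf1d carries the same bases as the low one. Over the 9 genes with sequence for both kinds, 5 of 10 low introns and 4 of 16 detained introns began with GTAAGT or GTGAGT, searched on the transcript strand at the donor position only. Over all introns with sequence and at least 30 expected reads, 21 of 57 low introns (36.8%), 25 of 119 detained introns and 76 of 269 others (28.3%) did so. The share was 25.1% over all introns of the table with sequence. These counts are small and come from introns that are annotated as retained in some transcript, so they describe 57 of the 1272.

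The low introns also included 2 with the donor of the minor spliceosome, which begins ATATCCTT or GTATCCTT and is recognised by other small nuclear RNAs than the usual donor. They are in Spc24, a kinetochore gene, and in Exosc5, a subunit gene of the RNA exosome. The donors (first 6 intron bases in capitals) and the acceptors (last 20 intron bases and first 10 exon bases, last 2 intron bases in capitals) are given below.
Spc24 intron 3 donor, chr9:21757665-21757694, minus strand: ctaggctacgATATCCtttgctatgtccgg
Spc24 intron 3 acceptor, chr9:21757385-21757414, minus strand: ttggccttaacccagtgcACtcagctcatc
Exosc5 intron 4 donor, chr7:25664439-25664468, plus strand: cgctggctctGTATCCtttcccagccctct
Exosc5 intron 4 acceptor, chr7:25665401-25665430, plus strand: aaccagtctgtgatgcccAGctcttggcct

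The Spc24 intron began AT and ended AC, whereas 56 of the 57 low introns with sequence began GT and ended AG. Its observed mean was 47.5% of expected in DMSO and 39.8% in KH-CB19. Exosc5 intron 4 stood at 20.7% and 21.9%, while the detained intron 2 of the same gene stood at 249% and 254%. The minor donor was found in 0.977% of all introns of the table with sequence. Among those with enough expected reads, 2 of 119 detained introns and 2 of 269 others had it as well.

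Across the 1272 introns the median observed mean was 29.3% of expected in DMSO (quartiles 20.8% and 37.9%) and 30.1% in KH-CB19 (quartiles 20.5% and 38.3%). Summed over all of them, 41601.5 reads were observed against 206689 expected in DMSO, or 20.1%, and 32954 against 168694 in KH-CB19, or 19.5%. The other 4461 introns with enough expected reads had medians of 118% in both groups. The rule used these values, so they describe the introns and test nothing. In these bulk samples, fewer cells that keep an intron and less of it in each cell cannot be told apart.

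**Figure D1:**
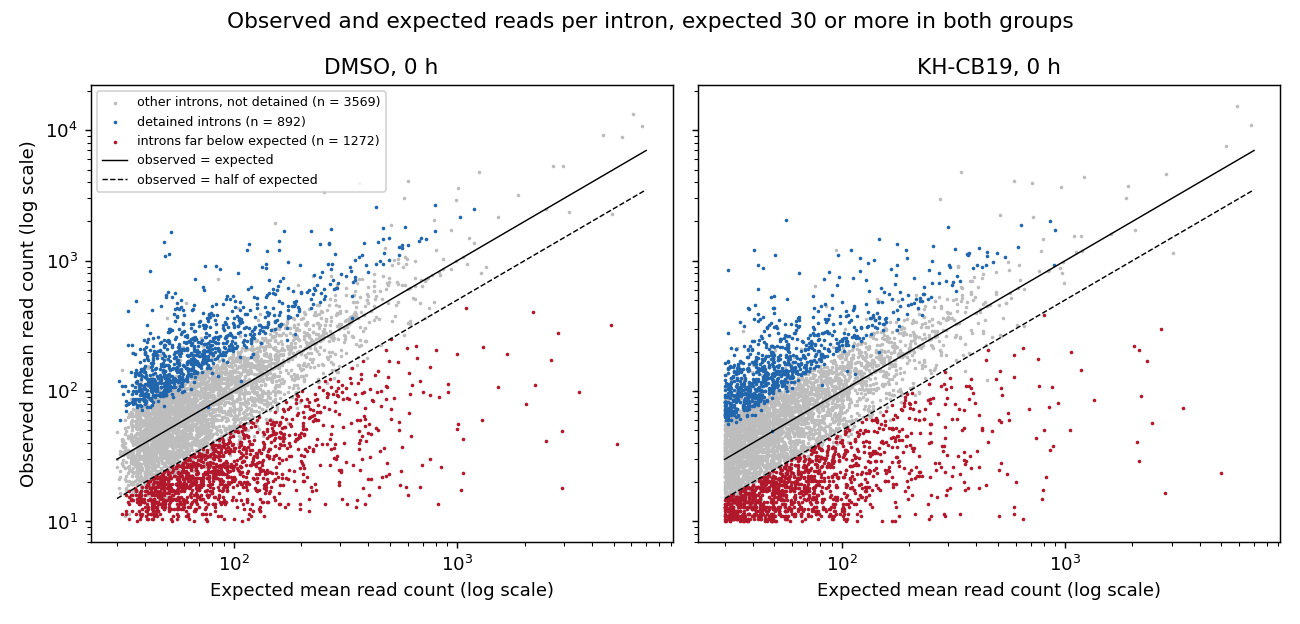
Observed mean read count (vertical, log scale) against expected mean read count (horizontal, log scale) of the 5733 introns with at least 30 expected reads in both groups, in DMSO and KH-CB19 at 0 h. Each point is 1 intron, the solid line marks observed equal to expected and the dashed line 50% of it; the 1272 low introns lie under the dashed line in both panels and the 892 detained introns lie mostly above the solid line.

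The depth of the fall below expectation varied widely. In both groups 380 introns were at or under 25% of expected, and 62 introns in 42 genes were at or under 10%. The authors' adjusted p for observed below expected was under 0.05 for 1269 of the 1272 in DMSO, where 10.9% of all introns with a value were called below. It was under 0.05 for 1247 in KH-CB19 (8.93% of all) and for 1245 in both groups (8.21% of all). The rule used the same contrast, so nothing is read from these counts.

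At the limit itself, Ergic3 intron 12 (50% in DMSO, 43.5% in KH-CB19), Rmnd5b intron 6 (48.6% and 50%) and Znhit6 intron 10 (50% and 21.1%) were just inside. Mrps11 intron 2 (50.3% and 49.2%), Pcgf6 intron 8 (40.9% and 50.3%) and Pkp4 intron 2 (42.6% and 50.3%) were just outside. Observed means of the low introns were at least 10 reads, the floor below which nearly all introns carry a low-coverage word in place of a value. In all, 84 of the 1272 had fewer than 11 observed reads in at least 1 group. Introns of the table without a value numbered 660 in DMSO and 3488 in KH-CB19, and they could not meet the rule.

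The lowest intron of all, by the mean of both groups, was intron 2 of Hsp90ab1, the gene of a constitutive HSP90 chaperone (mm9 chr17:45708861-45709382, 5′ UTR). The authors' means were 39.5 reads observed and 5175.5 expected in DMSO, or 0.763%, and 23.5 and 4956.5 in KH-CB19, or 0.474%. Intron 6 of the gene had 18 of 2927 expected reads in DMSO (0.615%), the lowest share of any of the 1272 in that group. In the same gene, introns 17 and 19 had 114 of 908.5 and 98 of 3518.5 expected reads in DMSO, whereas introns 5, 14 and 21 stood at 180%, 163% and 218%. Intron 21 contains introns 17 and 19, so their reads are not separate from its own. Near-identical copies of this gene exist elsewhere, and the treatment of reads that fit several copies is not given in the sources used here, which leaves its values uncertain.

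Nup93, a structural subunit gene of the nuclear pore, had the lowest intron outside Hsp90ab1, number 9 (mm9 chr8:96767672-96805170, 37499 bp, between coding exons). It held 41.5 of 2496 expected reads in DMSO (1.66%) and 29 of 2137 in KH-CB19 (1.36%). Introns 13, 15 and 21 of Nup93 stood at 5.59%, 22.5% and 7.62% in DMSO. The gene's reads came nearly all from intron 6, of 163 bp, which had 10653.5 reads in DMSO with an expected mean of 0.5 and was not found in the annotation.

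Genes of RNA-binding proteins supplied several of the lowest introns. Sfpq, a paraspeckle and splicing factor, had 13.5 of 816.5 expected reads in intron 4 in DMSO (1.65%) and 11.5 of 592.0 in KH-CB19 (1.94%; mm9 chr4:126701014-126703098, between coding exons). Tardbp, which encodes TDP-43, had 17.5 of 1040 in intron 3 (1.68%) and 15 of 786.0 (1.91%; mm9 chr4:147999484-148000789, not found in the annotation). Tardbp protein binds its own transcript and limits its own level. Ncl, which encodes the nucleolar protein nucleolin, had 22.5 of 478.0 in intron 15 (4.71%) and 10.5 of 645.0 (1.63%; mm9 chr1:88251720-88252626, between coding exons). Taf15, a FET family protein gene, had 18 of 380.0 in intron 3 (4.74%) and 11 of 504.5 (2.18%; mm9 chr11:83295476-83298152, between coding exons).

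The other 4 of the 10 genes with the lowest introns were of mixed roles. Sall4, a pluripotency transcription factor, had 49 of 2955.5 expected reads in intron 7 in DMSO (1.66%) and 41 of 2102 in KH-CB19 (1.95%; mm9 chr2:168575961-168577953). Trim28, a corepressor that silences retroviral elements, had 16 of 603.0 in intron 2 (2.65%) and 13 of 591.0 (2.20%; mm9 chr7:13610766-13610992). Msh6, a mismatch repair gene, had 19 of 555.0 in intron 5 (3.42%) and 11.5 of 340.0 (3.38%; mm9 chr17:88386322-88387525). Actb, the β-actin gene, had 18.5 of 682.5 in intron 9 (2.71%) and 22 of 820.5 (2.68%; mm9 chr5:143665621-143665745), and it too has near-identical copies. All 4 introns lie between coding exons, and in each of them both groups differed by less than 1 percentage point.

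**Figure D2:**
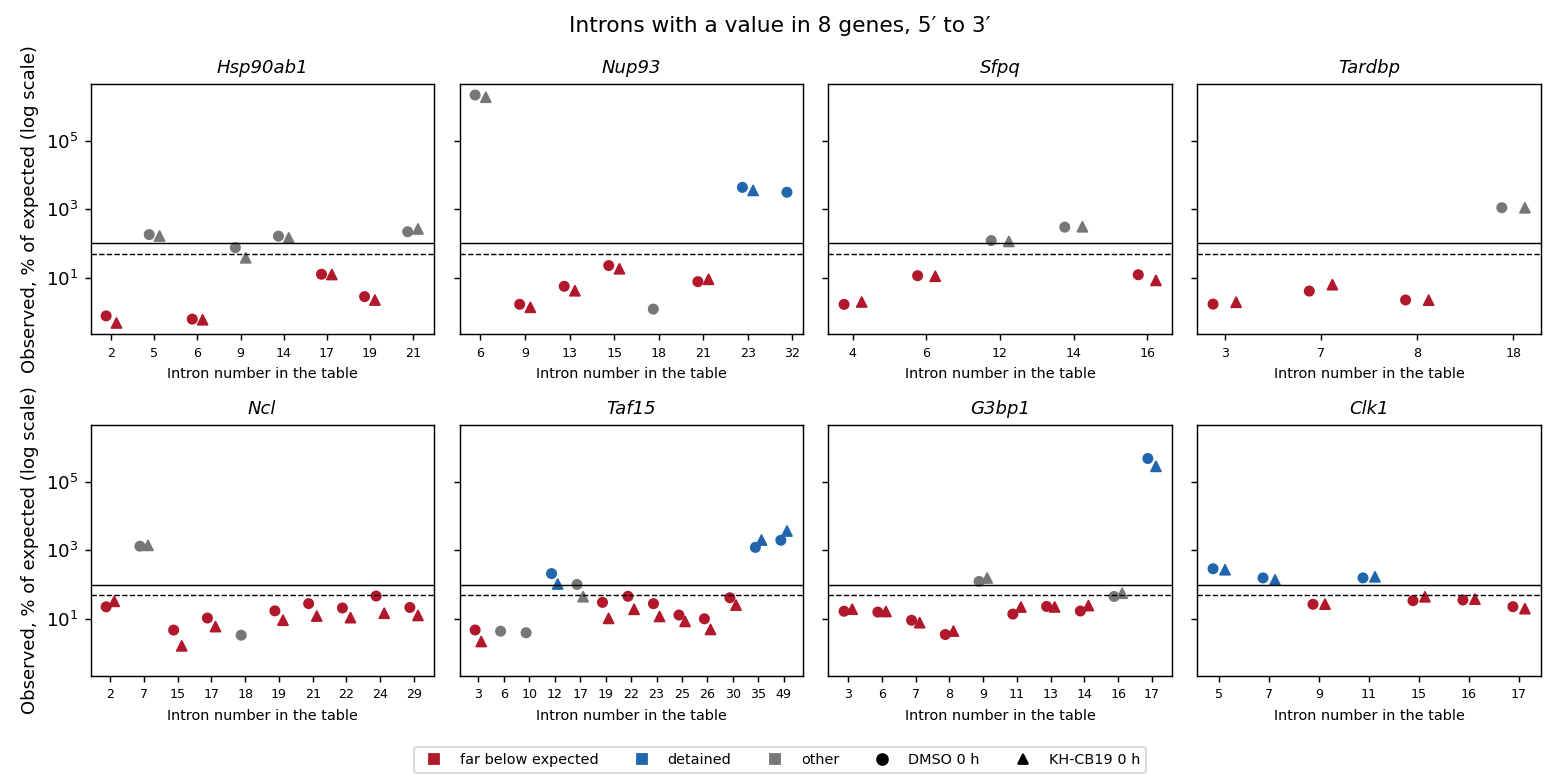
Observed reads as a percent of expected (vertical, log scale) for every intron with a value, 5′ to 3′, in 8 genes at 0 h; circles are DMSO, triangles KH-CB19, red marks introns far below expected, blue detained introns and grey the others. The solid line marks 100% and the dashed line 50%; in each gene 1 or a few introns stand above 100% while the low ones lie under 50%, down to 0.615% in DMSO for Hsp90ab1.

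Low introns and introns far above expectation thus stood side by side in these genes. In each of the 10 genes with the lowest introns, 1 intron held between 44.3% (Hsp90ab1, whose leading intron 21 contains the low introns 17 and 19) and 97.9% (Tardbp) of the gene's observed intron reads in DMSO. Of these 10 leading introns, 8 were not found in the annotation at their length, and the other 2, Actb intron 3 and Tardbp intron 18, are spanned by an exon of another annotated transcript. Only those of Msh6 and Taf15 were classed as detained. Among the 828 genes, the intron with the most reads was found in the annotation in 77.3%, against 90.7% for the 1272 low introns.

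The method behind the expected counts is not given in the sources used here. Their relation to length and to the other introns of a gene was therefore measured. Within genes with at least 3 valued introns, the longer of 2 introns had the higher expected count in 97.4% of 39759 pairs. The median slope of log2 expected on log2 length was 0.53 (990 genes). The ratio of KH-CB19 to DMSO expected counts was nearly the same for all introns of a gene, with a median coefficient of variation of 0.571%. Summed over a gene's valued introns, observed reads came to a median of 114% of expected in the 828 genes (quartiles 100% and 137%). The expected counts of a gene's introns thus kept nearly fixed proportions between the groups. Over valued introns they summed to near the observed reads in many of the 828 genes, but not in all, with an upper quartile of 137%. Introns without a value are missing from these sums.

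The introns were also measured against expected counts scaled down for the gene's leading intron, the one with the most reads. Each expected count was reduced by the leading intron's share of the gene's observed reads. After this, 293 of the 1272 (23.0%), in 201 genes, were still at or under 50% in both groups. Those include Hsp90ab1 introns 2 and 6, Sfpq intron 4, Sall4 intron 7, Trim28 intron 2, Ncl intron 15, Taf15 intron 3 and Msh6 intron 5. Nup93 intron 9, Actb intron 9 and Tardbp intron 3 were not among them. The leading intron's own expected count was not taken out of the gene's total. Where a gene's observed and expected sums are close, the scaled counts are therefore too low, and 293 is likely an undercount. Against the median ratio of the gene's own introns in DMSO, 744 of 1193 low introns in genes with at least 3 valued introns were at or under 50%, with a median log2 difference of −1.31.

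Most genes had a single low intron (571), 149 had 2, 62 had 3 and 46 had at least 4. Ncl had the most, 8 of its 10 valued introns, with 498.5 reads observed and 2689.5 expected over the 8 in DMSO. G3bp1, a stress granule assembly factor, had 7 of 10, at 3.49% to 23.0% of expected in DMSO. Ewsr1, a FET protein gene like Taf15, had 7 of 13 at 10.6% to 48.9%, and its introns 14 and 15 were detained at 604% and 217%. Taf15 had 7 of 13 at 4.74% to 45.6%. Jarid2, a partner of Polycomb repressive complex 2, had 6 of 14 at 16.5% to 25.5%, among them introns of 25861 bp (number 10) and 24764 bp (number 7), while its detained intron 2, of 1777 bp, stood at 1046%. The leading intron held 86.8% of the observed intron reads in DMSO in Ncl (number 7) and 71.5% in G3bp1 (number 17). After the scaling for the leading intron, fewer stayed at or under 50% in both groups. These were Ncl 15, G3bp1 7 and 8, Ewsr1 10, Taf15 3, 25 and 26, and Jarid2 7, 10, 12, 14 and 15. That scaling likely undercounts.

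The low introns were spread over genes of many functions, and the lists below are read beside the 34.4% of genes and 22.2% of introns found among all those with enough expected reads. Genes with more such introns have more chances to hold a low one, and there were 5733 such introns in 2404 genes over all. The low share also rose with expected reads, from 14.7% to 39.9%. The lists were matched for neither, so their shares do not show a link to function. Among SR proteins and their regulators, 20 of 23 genes with enough expected reads held a low intron, 40 of 104 introns (38.5%), with a median of 27.4% of expected in DMSO. Srsf6 intron 6 had 12 of 216.0 expected reads in DMSO (5.56%), Srrm2 intron 3 had 13.5 of 257.0 (5.25%), and Srsf5 intron 6 had 24 of 300.5 (7.99%). Clk1 had 4 low introns, numbers 9, 15, 16 and 17, at 26.7%, 34.0%, 35.6% and 22.7% in DMSO, and Clk4 had 2, numbers 3 and 11, at 47.6% and 26.4%. In KH-CB19 the Clk1 introns stood at 26.9%, 44.0%, 37.6% and 19.8%.

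Of the hnRNP and FET genes, whose proteins coat nascent RNA, 19 of 27 held a low intron, with 54 of 131 introns (41.2%) at a median of 23.7%. Hnrnph1 introns 3 and 17 stood at 3.09% and 4.14% in DMSO and at 4.97% and 5.81% in KH-CB19. Core spliceosome and associated genes did so in 10 of 23 cases, with 24 of 65 introns (36.9%); Ddx5, an RNA helicase gene, had intron 4 at 3.98% and intron 5 at 6.80%. Nucleolar proteins and RNA helicases of ribosome assembly did so in 7 of 13, with 29 of 73 introns (39.7%), and Nop56, a core protein of box C/D ribonucleoproteins, had introns 2 and 4 at 3.97% and 6.53%. Nuclear pore and transport genes did so in 14 of 16, with 24 of 66 introns (36.4%) at a median of 31.6%.

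Ribosomal protein and translation factor genes held a low intron in 31 of 50 cases, with 51 of 182 introns (28.0%, beside 22.2% of all) at a median of 27.4%. Eef1a1 intron 2, of the elongation factor that brings tRNA to the ribosome, had 321.5 of 4874 expected reads in DMSO (6.60%) and 222.0 of 2036 in KH-CB19 (10.9%). Eif4g2 intron 7 and Eif3a intron 18, of initiation factor genes, stood at 8.44% and 9.22%. Chaperone genes did so in 14 of 26 (29 of 96 introns, 30.2%), and genes of glycolysis and energy supply in 12 of 23 (17 of 65 introns, 26.2%), where Slc25a5, the ADP/ATP carrier gene, had introns 6 and 7, which overlap and share reads, at 7.02% and 6.62%. Eef1a1 and Slc25a5 also have near-identical copies, and over the 62 genes listed for such copies with enough expected reads, 32 held 55 of the low introns, out of 198 introns (27.8%).

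DNA replication genes held a low intron in 11 of 21 cases (23 of 82 introns), chromatin genes in 12 of 29 (18 of 79 introns) and pluripotency genes in 10 of 30 (18 of 84 introns). Mcm5, a subunit gene of the replicative helicase, had intron 8 at 9.16% in DMSO, Mbd3, of the NuRD complex, had intron 7 at 7.98%, and Eed, of Polycomb repressive complex 2, had intron 3 at 13.1%. Cell cycle genes did so in 5 of 16 (13 of 45 introns) and proteasome and ubiquitin genes in 9 of 25 (19 of 73 introns). Genes of nucleotide and one-carbon metabolism did so in 6 of 15 (8 of 45 introns), cytoskeleton genes in 4 of 15 (7 of 35 introns) and tRNA synthetase genes in 3 of 11 (3 of 28 introns). In those groups Mybl2 intron 6 stood at 4.91%, Usp14 intron 17 at 8.49%, Umps intron 7 at 25.1%, Actn4 intron 11 at 20.7% and Farsa intron 6 at 9.88%. Among pluripotency markers, Pou5f1, Nanog, Zfp42 and Esrrb had introns with enough expected reads, which does not by itself mean a low intron. Of 16 markers of other cell types, only the fibronectin gene Fn1 had introns in the table, with 1 low intron, number 19, at 45.5%. The lists are short, their genes share introns' expected counts, and no list was tested.

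The rule did not use annotation, but annotation is not independent of the counts: exon sequence of another transcript inside an intron can add to its observed reads. In all, 1154 of the 1272 were found in the GENCODE annotation of GRCm38 by gene and exact length. Coding exons flanked 91.9% of these on both sides, 4.59% were in a 5′ UTR and none was in a 3′ UTR. Among the 3078 other introns found that were neither low nor detained, 87.1% lay between coding exons, and 86.9% did among 720 detained ones. The low introns were the last of their transcript in 3.64% of cases against 6.95% and 7.08%, and the first in 4.85% against 7.28% and 4.03%. Over all introns of the table found in the annotation, 94.2% lay between coding exons, 3.68% were last and 2.84% were first.

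Among the annotation features looked at, alternative exons showed the widest gap between the groups. Another transcript of the gene places exon sequence inside 31.5% of the low introns, 49.2% of the others not detained and 67.2% of the detained ones. Low introns of at most 2000 bp had such an exon in 28.5%, and the other introns of that length in 50.5%. Above 2000 bp the shares were 34.2% and 54.0%. An exon of another transcript spans the whole intron for 5.11% of the low introns, 8.87% of the others and 16.9% of the detained ones. Over all introns of the table found in the annotation, 39.8% had exon sequence inside and 9.06% were spanned. For exon sequence inside, the low introns thus lay below the whole table and both other groups above it. These shares stand side by side with no test, because introns of a gene share its expected count and exonic reads can enter the observed one.

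**Figure D3:**
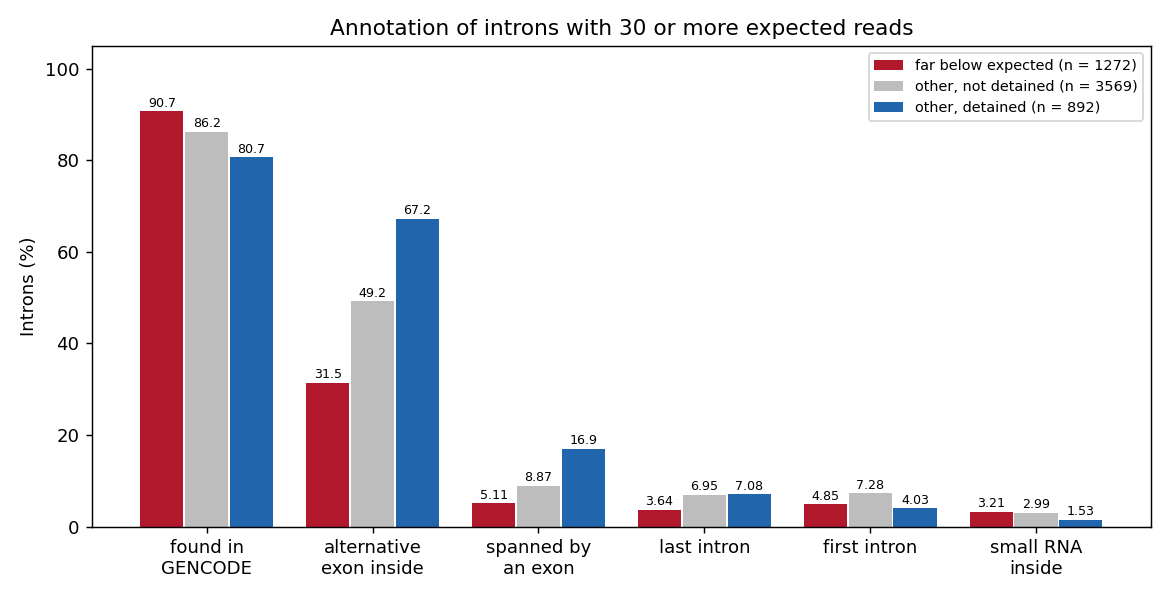
Share of introns (%, vertical) with each annotation for the 1272 low introns (red), 3569 others not detained (grey) and 892 detained introns (blue) with at least 30 expected reads. The first set of bars is the share found in GENCODE and the others are shares of those found; the low introns have the lowest bars for an alternative exon inside (31.5%) and for a spanning exon (5.11%).

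Exon ends and small RNA genes differed less. The upstream exon ended in AG at 54.2% of low introns, 54.6% of the others and 56.5% of the detained ones. Small RNA genes lay inside 37 low introns (3.21%), against 2.99% and 1.53%. Examples are the small nucleolar RNA Snord110 in Nop56 intron 4 and Snora75 in Ncl intron 24.

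The low introns had a median length of 2020 bp (quartiles 894 and 4631), against 2391 bp for the others and 2346 bp for the detained ones, and the 62 lowest had a median of 971 bp. Because the expected counts follow length, these lengths are tied to the rule. Among introns with enough expected reads, the share that was low ran from 19.4% (2000 to 5000 bp) to 28.3% (500 to 1000 bp), with no steady order over the length classes. It was higher with more expected reads, from 14.7% at 30 to 50 expected reads in DMSO to 39.9% at 500 or more. Per kilobase, the median observed in DMSO was 12.5 reads for the low introns, 29.6 for the others and 83.1 for the detained ones. The median expected was 44.7, 28.9 and 29.6 reads. Over all introns of the table these medians were 16.2 observed and 11.6 expected reads. The whole table has no minimum of expected reads, so the higher expected median of the low introns beside it is tied to the rule. Beside the others with enough expected reads, the low introns were higher in expected and lower in observed reads per kilobase. The rule used both values, so nothing is read from these medians.

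Genes with a low intron often held a detained one. Of the 828 genes, 611 (73.8%) did, against 605 of 1576 (38.4%) genes with enough expected reads and no low intron. The 828 had a median of 5 valued introns and the 1576 a median of 3. With 2 valued introns the shares were 41.8% and 17.3%, with 3 they were 51.2% and 33.7%, and with 4 to 5 they were 72.9% and 54.0%. With 6 to 8 they were 88.7% and 81.7%, and with 9 or more 94.0% and 91.5%. Because the summed expected counts of many of the 828 genes lay close to their summed observed reads, these shares are not independent of the rule.

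**Figure D4:**
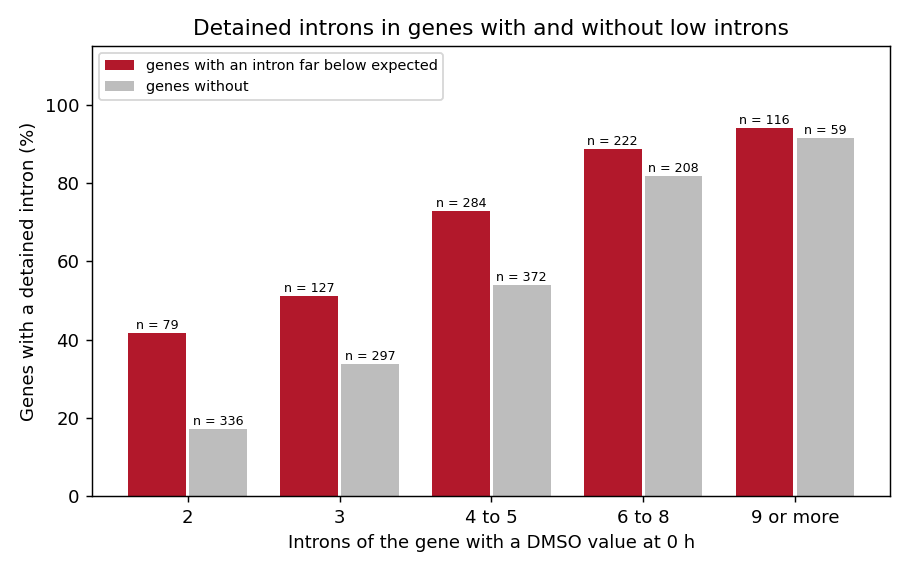
Share of genes that hold a detained intron (%, vertical) by the number of the gene's introns with a DMSO value at 0 h (horizontal), for genes with an intron far below expected (red) and genes with enough expected reads and none (grey), with the number of genes above each bar. The red bar is above the grey one in all 5 classes, by most at 2 introns (41.8% and 17.3%) and by least at 9 or more (94.0% and 91.5%).

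In genes with a detained intron, 1009 of the low introns could be placed relative to it. Of these, 63.6% lay 5′ of every detained intron of the gene, 27.4% lay 3′ of all and 9.02% lay between. Of 1681 other introns of enough expected reads in such genes, 59.7% lay 5′ and 31.3% lay 3′.

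At 0 h the low introns had nearly the same ratios in cells harvested directly after KH-CB19 as after DMSO. The log2 ratio of observed to expected was a median of 0.02 higher in KH-CB19 (quartiles −0.20 and 0.23, range −1.66 to 1.16), with 663 introns higher and 608 lower. In the other introns with enough expected reads the median difference was 0.00 (quartiles −0.11 and 0.11). Both groups were part of the rule, and with 1 mean per group no difference could be tested. Across the 1272 introns, which share genes and libraries, the log2 ratios in both groups had a Pearson r of 0.91 and a Spearman rho of 0.82, given as a description.

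**Figure D5:**
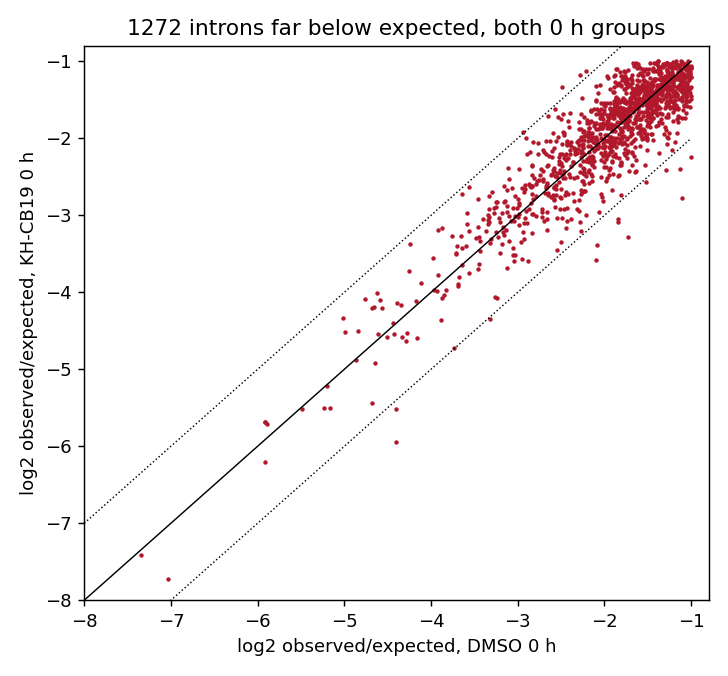
Log2 ratio of observed to expected reads in KH-CB19 (vertical) against DMSO (horizontal) at 0 h for the 1272 low introns, 1 point each. The solid line marks equal ratios and the dotted lines a log2 difference of 1 either way; 17 introns lie outside the dotted lines, and both axes end near −1 because the rule selects there.

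Differences beyond 1 on the log2 scale were found in 17 introns of 11 genes, 13 lower and 4 higher in KH-CB19. Taf15 had 5 of them and Ncl had 3. All 7 low introns of Taf15 and 7 of 8 of Ncl were lower in KH-CB19. Yet the authors' adjusted p for observed below expected was larger in KH-CB19 for Ncl intron 15 (1.98e-14 against 1.2e-61 in DMSO). The same held for Ncl intron 17 (1.44e-09 against 3.1e-45) and Taf15 intron 3 (7.79e-21 against 2.46e-54). Taf15 introns 19, 22 and 30 went the other way, and Ncl intron 24 was alike in both groups. Spread between the KH-CB19 replicates of these genes could not be seen and was not tested. Ncl intron 24 went from 118.5 of 256.0 expected reads in DMSO (46.3%) to 50.5 of 345.5 (14.6%), and Taf15 intron 19 from 46.5 of 153.5 (30.3%) to 21 of 203.5 (10.3%). In both genes the expected counts were higher in KH-CB19, by a median of 1.35 times in Ncl and 1.33 times in Taf15, while those of G3bp1, Ewsr1 and Jarid2 were lower, at 0.648, 0.697 and 0.742 of DMSO.

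Single introns of other genes also differed. Hirip3 intron 5, of a histone chaperone gene, had 46 of 196.5 expected reads in DMSO (23.4%) and 29.5 of 352.5 in KH-CB19 (8.37%), so its expected count was higher in KH-CB19 as well. Eif3a intron 27 stood at 23.5% and 9.57%, with an observed mean in KH-CB19 of 10 reads, the floor itself, and Ncl intron 15 had 10.5. Higher in KH-CB19 were Uba2 intron 9 (17.7% and 39.8%), of a subunit of the SUMO-activating enzyme, Tead1 intron 10 (20.6% and 44.0%), of a Hippo pathway transcription factor, and Cenpn intron 4 (21.6% and 45.7%), of a centromere protein. Rbm28 intron 13 was at 16.9% in DMSO and 32.7% in KH-CB19, and Tmem39a intron 9 had 11 of 84.5 expected reads and 18.5 of 70. The DMSO means of these 5 introns were between 11 and 12.5 reads, also next to the floor.

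After 2 h the low introns had no values, so only the detained introns of their genes could be followed. These were 948 introns in 611 genes. In the authors' deposited table, 68 of them (7.17%) were higher in KH-CB19 than in DMSO at adjusted p below 0.05, where 5.47% of all 3454 detained introns were. Another 64 (6.75%) were lower, where 4.17% of all were. Together 132 (13.9%) changed, against 9.64% of all detained introns and 8.02% of the 2506 in other genes. Their median 2 h mean in the authors' deposited table was 131 normalised reads, against 48.3 in other genes. Among introns with at least 50 normalised reads in either group, the shares in the authors' deposited table were 15.3% and 12.4%. At that depth 7.95% were higher in KH-CB19 against 8.24% in other genes, the reverse of the order over all detained introns (4.83% in other genes). Those lower in KH-CB19 were 7.37% against 4.19% in the authors' deposited table. The difference between both sets of genes was not tested.

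Among the detained introns of genes with a low intron, the largest falls were in Clk1 and Clk4, whose kinases KH-CB19 inhibits. In the authors' deposited table, Clk1 intron 5 had a log2 ratio (KH-CB19 over DMSO, 2 h) of −3.56, with adjusted p = 4.02e-44. Clk1 intron 7 had −3.44 in the authors' deposited table, with adjusted p = 5.21e-24. At 0 h these stood at 290% and 157% of expected in DMSO, beside the 4 low introns of the gene at 22.7% to 35.6%. Clk4 introns 10 and 7 had −2.87 and −2.76 in the authors' deposited table, with adjusted p = 4.8e-11 and 2.06e-18. Srsf7, an SR protein gene, had −2.52 for intron 6, with adjusted p = 2.06e-18 in the authors' deposited table. Srsf7 had 1 low intron, number 21, at 31.2% in DMSO.

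The largest rises in genes with a low intron were in Gspt1, a translation termination factor gene, with a log2 ratio of 2.24 for intron 9 in the authors' deposited table (adjusted p = 1.41e-17). Npepps, an aminopeptidase gene, followed with 1.97 for intron 25 (adjusted p = 2.49e-06 in the authors' deposited table). Hells intron 18, of a chromatin remodeller, had 1.75 (adjusted p = 0.000816), and Srrm1 intron 4, of an SR-related splicing coactivator, had 1.69 (adjusted p = 1.62e-11), both in the authors' deposited table. Fblim1 intron 26, of a filamin-binding protein gene, had 1.63 (adjusted p = 2.24e-10 in the authors' deposited table). Each of these genes held an intron far below expectation at 0 h.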

How the data were processed

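Reads from 8 libraries had been reduced by the authors to 1 table of introns. Per the submitters' processing notes, reads were placed on mm9 and the tools included DESeq, TopHat2 2.0.9, Cufflinks 2.1.1, Bowtie 1.0.0, bedtools 2.17.0 and SAMtools 0.1.19. Per the file headers, the authors deposited observed and expected mean read counts per group (a signal, with means in steps of 0.5 at 0 h), log2 ratios and adjusted p-values. Depth per library was not given. No table column of a single library was used (0), so the planned tests across libraries were replaced by description, and the authors' adjusted p-values are quoted at 0.05.

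Percent of expected was computed as observed over expected mean, with no pseudocount. Introns were matched to the GENCODE annotation of GRCm38 by gene symbol or unique RefSeq synonym and exact length, with a shift between builds within 200 bp of the gene's most common shift; no coordinates were converted. The rule for named introns took the 10 lowest (1 per gene), the 8 with most expected reads, the 5 genes with most introns, the 3 nearest the limit on each side, up to 3 per list, the 5 largest differences between 0 h groups each way, and the 5 largest falls and rises at 2 h. Introns of Clk1, Clk4, Srsf5, Srsf7, Mcm5, Spc24, Exosc5 and Taf1d named beyond it were chosen after their values were seen. The introns and gene lists were chosen with earlier results of these data known. The selection code was tested on simulated data. Python 3.11.15, pandas 2.3.3 and numpy 2.4.6 were used.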

Additional observations from a re-analysis of the deposited data

How the results depend on the processing

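No paired analysis was possible because the table gives 1 mean per group and no value per library, and for the same reason no library could be left out; the alternative with a replicate block was not run. Of 71 recomputed values, 50 stayed within 1.5 times the main value (0.1 for a log2 difference, the 95% binomial interval for a share) and 21 moved. With a minimum of 50 expected reads, the genes fell to 549 and the share of genes with a detained intron was 76.7%. With a minimum of 100, 384 introns in 236 genes remained, at medians of 18.5% (DMSO) and 18.2% (KH-CB19), 384 of them below at the authors' adjusted p, 167 in list genes, and 77.5% of genes with a detained intron. With observed at most 25% of expected, 380 introns in 258 genes remained, at 15.7% and 15.4%, 380 below at the authors' adjusted p, 144 in list genes, and 82.2% of genes with a detained intron. The rule in DMSO alone gave 2083 introns in 1266 genes. A pair of alternatives was chosen after seeing the data. Expected counts scaled down by the leading intron's share of observed reads left 293 introns in 201 genes, likely an undercount. Ratios relative to the gene's median gave 843 introns, 689 of them among the 1272. A pseudocount of 10 left 940 introns. Depth limits how low an intron can be seen, since nearly all introns with an observed mean below 10 carry no value.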
